A study of Mus musculus with 16 samples.

Results

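The genes of the AP-1 transcription factors, Jun, Junb, Jund, Fos, Fosb, Fosl1, Fosl2 and Atf3, were followed across 14 ChIP-seq peak lists of MC3T3-E1 cells. They were chosen by name, as 8 of the 22239 genes in the annotation set used here. A binding peak or a histone mark region was given to a gene when that gene had the nearest transcription start site (TSS) and lay within 100 kb. All positions are on mouse build mm9 with GENCODE vM1 gene models, and they count from 1.

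MC3T3-E1 is a pre-osteoblast line derived from mouse calvaria that lays down mineralised matrix under osteogenic culture. Differentiated cells, cultured for 15 days with ascorbic acid at 50 µg/mL and glycerol-2-phosphate at 10 mM, were set against undifferentiated cells. Passages 5 to 12 were used, the cells of all 14 lists had received the vehicle ethanol for 3 h, and differentiated cultures were freed of their mineralised matrix before chromatin preparation. Antibodies against 2 factors, RUNX2 and C/EBPβ, and 5 histone marks gave 1 list each per state, and replicates had been merged by the authors. The title alone gave the state of the differentiated H3K36me3 list, because its other labels are garbled. The acetylation called H4K5Ac here, after the antibody label, is written H3K5Ac in the protocol. Input DNA of 2 samples, the differentiated one labelled with 100 nM of the vitamin D hormone, was not used.

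AP-1 is a dimer of basic leucine zipper proteins. Jun proteins can pair with each other or with Fos proteins, Fos proteins need a Jun partner, and the dimers bind the TPA response element. Many of the genes are immediate early genes that respond to growth factors, stress and mechanical load. In bone, overexpression of Fosl1 (Fra-1) or of a Fosb splice form (ΔFosB) increases bone mass in mice, and Fos is required for osteoclasts. RUNX2 is the runt-domain factor required for osteoblast formation, and C/EBPβ is a leucine zipper factor that also acts in osteoblasts.

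With 1 list per state and antibody, differences between states have no replicate error and were not tested. The RUNX2 list held 6272 peaks in differentiated and 12674 in undifferentiated cells, and the C/EBPβ list held 10847 in differentiated and 15622 in undifferentiated cells. The mark lists ran between 8196 and 54403 regions in differentiated and between 6920 and 51122 in undifferentiated cells. Read depth is unknown, and its part in the shorter factor lists of differentiated cells was not tested. Of 8 osteoblast markers, 5 carried H3K4me3 at the promoter in differentiated and 5 in undifferentiated cells, and their median H3K36me3 cover was 97.1% of the gene body in differentiated and 92.1% in undifferentiated cells. Of 12 markers of other cell types, 0 had H3K4me3 or H3K9Ac at the promoter in either state, and 1, the macrophage gene Cd68, was covered by H3K36me3 in both.

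RUNX2 sites at the AP-1 genes were more numerous in undifferentiated cells. The 8 genes held 4 RUNX2 peaks in differentiated and 16 in undifferentiated cells, a ratio of 0.25. Over all genes the ratio was 0.485, from 5266 peaks in differentiated and 10863 in undifferentiated cells. A RUNX2 peak lay at 4 of the 8 genes in differentiated cells and at 7 in undifferentiated cells, against 15.0% and 27.3% of all genes. The 6 genes Junb, Jund, Fos, Fosl1, Fosl2 and Atf3 had fewer peaks in differentiated cells, none of the 8 had more, Fosb had 1 in each state and Jun had 0 in each. Among all genes 19.8% had fewer and 2.92% had more. Because 72.6% of the genes with an undifferentiated RUNX2 peak had fewer, 6 of the 7 AP-1 genes with one is near that background. In bulk chromatin, fewer cells with a bound site and weaker binding in each cell cannot be told apart.

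**Figure D1:**
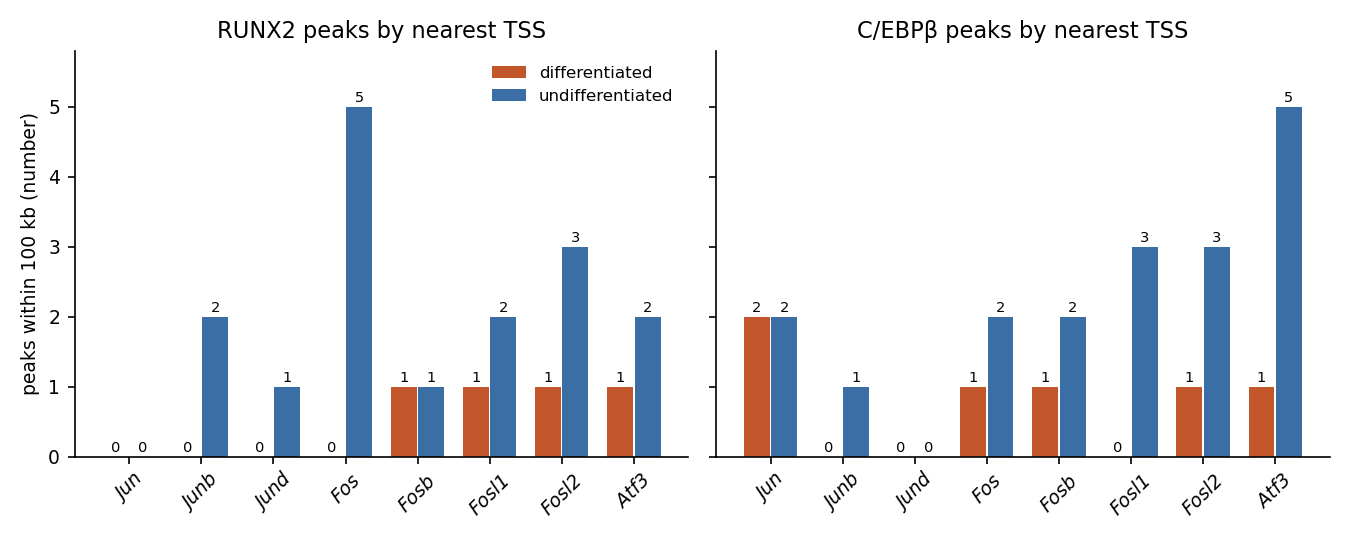
Number of RUNX2 peaks (left) and C/EBPβ peaks (right) given to each AP-1 gene by nearest TSS within 100 kb, in differentiated (orange) and undifferentiated (blue) cells, 1 merged list each. Fos had 0 RUNX2 peaks in differentiated and 5 in undifferentiated cells, and Atf3 had 1 C/EBPβ peak in differentiated and 5 in undifferentiated cells.

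By site, 3 of the 16 undifferentiated RUNX2 peaks overlapped a differentiated RUNX2 peak by at least 1 bp and are called kept, and the other 13 are called lost. This is 18.8%, with an exact Clopper-Pearson 95% interval of 4.05% to 45.6% that covers counting error only. Over all undifferentiated RUNX2 peaks 36.4% were kept and 63.6% lost, and the kept share lies inside the interval of the AP-1 sites. Among peaks over the gene bodies plus 10 kb on each side, 7.14% of 14 undifferentiated RUNX2 peaks were kept. The kept sites lay at Fosb, Fosl1 and Atf3, and their centres in the lists of the 2 states were 62, 13 and 68 bp apart. The 4 differentiated peaks were these 3 and 1 site without an undifferentiated partner, called gained, in an intron of Fosl2. The kept sites lay 2.60 to 47.3 kb upstream of their genes by the undifferentiated peak, outside promoters, which were taken as the 1 kb on each side of any TSS.

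Promoter binding of RUNX2 was seen at 5 of the AP-1 genes in undifferentiated cells and at 0 in differentiated cells. Of the 16 undifferentiated peaks 5 lay in promoters, 1 each at Jund, Fos, Fosl1, Fosl2 and Atf3, against 26.0% of all undifferentiated RUNX2 peaks. Of the 4 differentiated peaks 0 lay in promoters, against 18.6% of all differentiated RUNX2 peaks. The remaining 11 undifferentiated peaks of the AP-1 genes were intergenic. Among all RUNX2 peaks, too, promoter peaks were fewer in differentiated cells, 1166 against 3291 in undifferentiated cells. The share of all promoter sites lost was not computed, so the promoter losses are not shown to be particular to the AP-1 genes.

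The lost promoter peaks of Jund and Fosl1 overlap an annotated exon, and their sequences are not shown. Sequences are shown for the 3 other lost promoter sites and the 3 kept sites, which overlap no annotated exon. Each is the whole undifferentiated RUNX2 peak on the + strand of mm9. Capitals mark the RUNX motif TGTGGT, or its reverse complement ACCACA, and the AP-1 motif TGANTCA. These sites are chr12:86814618-86814818 at Fos, chr5:32438033-32438233 at Fosl2, chr1:193007250-193007450 at the Atf3 promoter, chr7:19905481-19905681 upstream of Fosb, chr19:5445006-5445206 upstream of Fosl1 and chr1:193054380-193054580 upstream of Atf3.
Fos promoter, lost: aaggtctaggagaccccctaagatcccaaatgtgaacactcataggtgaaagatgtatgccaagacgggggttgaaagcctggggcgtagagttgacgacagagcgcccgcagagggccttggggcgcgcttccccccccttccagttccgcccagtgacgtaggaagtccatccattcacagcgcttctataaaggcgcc
Fosl2 promoter, lost: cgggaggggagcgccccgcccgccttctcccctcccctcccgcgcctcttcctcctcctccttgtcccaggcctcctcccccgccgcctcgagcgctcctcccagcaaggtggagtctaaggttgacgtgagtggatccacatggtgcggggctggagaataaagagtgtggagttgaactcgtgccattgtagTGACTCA
Atf3 promoter, lost: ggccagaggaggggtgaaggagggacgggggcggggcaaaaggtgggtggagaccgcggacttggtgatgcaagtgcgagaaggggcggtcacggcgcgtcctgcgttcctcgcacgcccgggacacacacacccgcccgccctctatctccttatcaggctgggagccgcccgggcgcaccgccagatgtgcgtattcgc
Fosb upstream, kept: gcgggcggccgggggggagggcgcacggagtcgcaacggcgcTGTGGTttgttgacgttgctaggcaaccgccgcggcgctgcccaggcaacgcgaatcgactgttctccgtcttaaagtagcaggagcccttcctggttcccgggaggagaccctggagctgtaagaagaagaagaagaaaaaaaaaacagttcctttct
Fosl1 upstream, kept: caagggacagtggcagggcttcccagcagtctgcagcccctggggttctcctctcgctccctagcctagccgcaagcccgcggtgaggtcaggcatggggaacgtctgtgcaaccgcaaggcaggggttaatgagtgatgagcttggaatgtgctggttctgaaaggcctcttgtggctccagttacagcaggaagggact
Atf3 upstream, kept: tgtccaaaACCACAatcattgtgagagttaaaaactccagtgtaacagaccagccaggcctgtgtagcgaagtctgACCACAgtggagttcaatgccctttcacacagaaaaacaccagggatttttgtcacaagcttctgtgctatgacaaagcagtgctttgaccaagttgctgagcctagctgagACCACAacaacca

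None of the 3 lost promoter sequences holds the RUNX motif, and that of Fosl2 ends in the AP-1 motif TGACTCA. The kept site of Atf3 holds the RUNX motif at 3 places and that of Fosb at 1, while that of Fosl1 holds none of the motifs searched. Only the letters TGTGGT and ACCACA were counted as the RUNX motif, so a sequence without them may still hold a variant form. Over the 16 undifferentiated RUNX2 peaks of the AP-1 genes the RUNX motif, searched on both strands, was present in 7. It was present in 0 of the 5 promoter peaks and in 7 of the other 11 peaks. Of all undifferentiated RUNX2 peaks 51.5% held it, with 23.9% of the promoter peaks and 61.2% of the others. In differentiated cells 2 of the 4 peaks held it, against 59.6% of all differentiated peaks.

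The AP-1 motif itself was present in 3 of the 16 undifferentiated RUNX2 peaks, at Junb, Fosl1 and Fosl2, against 12.4% of all. The cyclic AMP response element, searched as TGACGTC, was present in 1, the Jund promoter peak, against 1.51% of all. The C/EBP motif TTGCNNAA was present in 2 of the 16 peaks, against 8.88%. The peaks of the AP-1 genes had a median GC content of 60.0%, and all undifferentiated RUNX2 peaks 50.2%. The 4 motifs cannot match at the same letters, though matches may overlap in part. A motif match describes the letters in the window and is not a measured contact.

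Among the Jun genes, which encode the partners common to AP-1 dimers, no RUNX2 peak was given to any in differentiated cells by nearest TSS. Jund had 1 in differentiated and 2 in undifferentiated cells within 20 kb of a TSS, and the same numbers over its body plus 10 kb. Jun (chr4:94715725-94718913, minus strand), the first described member, had 0 RUNX2 peaks in either state although the stretch of genome nearest to its TSSs spans 137 kb. Junb (chr8:87500811-87502617, minus strand), often a weaker activator than Jun, had 0 in differentiated and 2 in undifferentiated cells. These lay 2.55 kb upstream of the TSS, at chr8:87505064-87505264, and 2.04 kb downstream of it, just past the end of the gene, at chr8:87500478-87500678. The upstream peak held 1 RUNX motif and 1 AP-1 motif. Jund (chr8:73221638-73224515, plus strand), the member with the least inducible expression in most cells, had 0 in differentiated and 1 in undifferentiated cells, at chr8:73222572-73222772 over an annotated exon and 185 bp from its nearer TSS. Junb and Jund lie among close neighbours, with only 9.57 and 11.8 kb of sequence nearest to their TSSs, which limits how many peaks could be given to them.

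Fos had 0 RUNX2 peaks in differentiated and 5 in undifferentiated cells by nearest TSS, the highest undifferentiated count of the 8 genes under that rule. Within 20 kb of a TSS, whatever gene was nearer, Fos had 3 undifferentiated peaks, Fosl1 5 and Junb 4, and over the gene body plus 10 kb Fos, Fosl1 and Fosl2 had 3 each. Fos (chr12:86814840-86818223, plus strand), the cellular counterpart of a viral oncogene, had 5 peaks in the undifferentiated list. They were centred 26.7, 5.10 and 1.42 kb and 122 bp upstream and 23.9 kb downstream of the TSS. The 4 peaks other than that at 122 bp held a RUNX motif, and the peak 5.10 kb upstream overlapped an undifferentiated C/EBPβ peak. Each of the 5 lay in an H3K4me1 region in differentiated as well as in undifferentiated cells. The sequence nearest to the Fos TSSs spans 113 kb, more than that of any other member except Jun.

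The other Fos genes each had 1 RUNX2 peak in differentiated cells. Fosb (chr7:19888070-19895394, minus strand), the source of the truncated splice form ΔFosB, had 1 in differentiated and 1 in undifferentiated cells, the kept site 10.2 kb upstream. Fosl1 (chr19:5447703-5455945, plus strand), which encodes Fra-1, had 1 in differentiated and 2 in undifferentiated cells. Its kept site lay 2.60 kb upstream and its lost site 140 bp downstream of the TSS over an annotated exon, at chr19:5447743-5447943. Both undifferentiated Fosl1 peaks overlapped an undifferentiated C/EBPβ peak. Fosl2 (chr5:32438845-32460204, plus strand), which encodes Fra-2, had 1 in differentiated and 3 in undifferentiated cells. The 3 undifferentiated peaks were lost and lay within 1.64 kb upstream of the TSS. The 1 differentiated peak lay 3.41 kb inside the gene, at chr5:32442159-32442359, over a C/EBPβ peak of undifferentiated cells.

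Atf3, a stress-induced relative that pairs with Jun proteins and can act as a repressor, kept its distal and not its promoter RUNX2 site. Atf3 (chr1:192994175-193007219, minus strand) had 1 RUNX2 peak in differentiated and 2 in undifferentiated cells. The promoter peak, centred 131 bp upstream of the TSS, overlapped an undifferentiated C/EBPβ peak and was lost. The kept peak was centred 47.3 kb upstream in undifferentiated cells, and with non-coding genes included the nearest TSS was that of D730003I15Rik, 6127 bp away. Its assignment to Atf3 therefore rests on the protein-coding gene set.

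**Figure D2:**
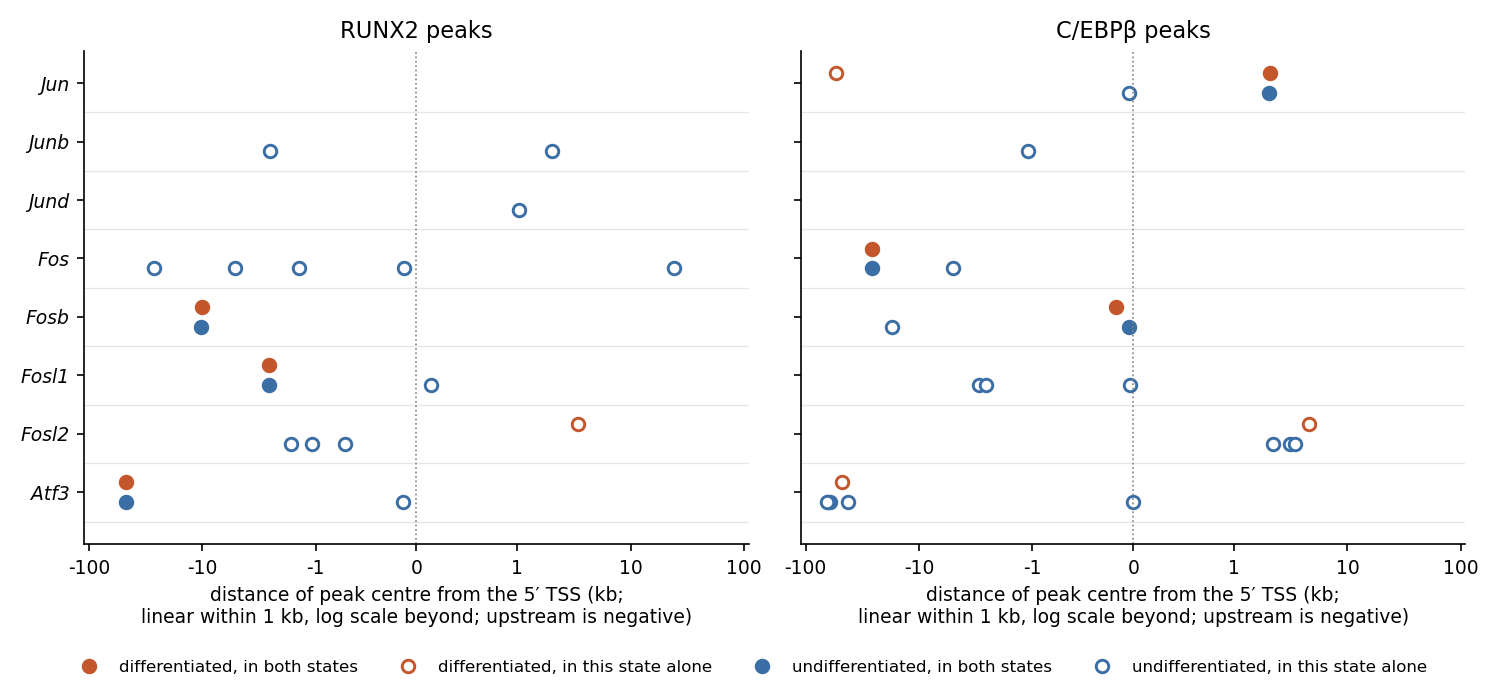
Distance in kb of each peak centre from the 5′ TSS of its gene, linear within 1 kb and on a log scale beyond, for RUNX2 (left) and C/EBPβ (right), with differentiated cells (orange) above undifferentiated cells (blue). Filled circles are sites found in both states and open circles are sites found in 1 state, so the lost RUNX2 promoter sites of Jund, Fos, Fosl1, Fosl2 and Atf3 appear as open blue circles near the start.

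C/EBPβ sites at the AP-1 genes were also more numerous in undifferentiated cells. The 8 genes held 6 C/EBPβ peaks in differentiated and 18 in undifferentiated cells, a ratio of 0.333, against 0.696 over all genes. A C/EBPβ peak lay at 5 genes in differentiated and at 7 in undifferentiated cells, against 21.8% and 27.7% of all genes. The 6 genes Junb, Fos, Fosb, Fosl1, Fosl2 and Atf3 had fewer in differentiated cells, Jun had 2 in each state and Jund 0 in each. Among all genes 16.1% had fewer and 6.16% more, and 58.1% of the genes with an undifferentiated peak had fewer. The RUNX2 and C/EBPβ lists are from the same 2 states of 1 cell line, so the 2 counts do not stand for separate comparisons of the states.

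Of the 18 undifferentiated C/EBPβ peaks 3 were kept, 1 each at Jun, Fos and Fosb. This is 16.7% with an exact 95% interval of 3.58% to 41.4%. Of all undifferentiated C/EBPβ peaks 43.1% were kept, just above that interval, and 56.9% were lost. The share at the AP-1 genes depended on which peaks were given to them. It was 31.6% of 19 peaks within 20 kb of a TSS and 31.2% of 16 peaks over the gene bodies plus 10 kb, both nearer to 43.1%. The interval is for counting error, and several of these peaks share a gene. Undifferentiated promoter peaks were found at Jun, Fosb, Fosl1 and Atf3, 39, 42, 34 and 2 bp upstream of the TSS, and the Fosb site was the 1 of these 4 that was kept. Promoter peaks were thus 1 of 6 in differentiated and 4 of 18 in undifferentiated cells, against 12.7% and 14.7% of all C/EBPβ peaks. The centres of the kept Fosb site in the 2 lists were 130 bp apart. The kept Fos site lay 26.1 kb upstream by the undifferentiated peak, and the kept Jun site lay 2.05 kb downstream of the TSS over the exon of the gene.

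By nearest TSS, Atf3 lost 5 C/EBPβ sites and Fosl1 and Fosl2 lost 3 each. Within 20 kb of a TSS, and likewise over the gene body plus 10 kb, Atf3 had 0 C/EBPβ peaks in differentiated and 1 in undifferentiated cells, while Fosl1 and Fosl2 each had 1 in differentiated and 4 in undifferentiated cells. Fosl1 had 0 C/EBPβ peaks in differentiated and 3 in undifferentiated cells, all within 2.97 kb upstream of the TSS. Atf3 had 1 in differentiated and 5 in undifferentiated cells, and 4 of those 5 lay 42.3 to 64.4 kb upstream, nearer to the non-coding D730003I15Rik than to Atf3. Fosl2 had 1 in differentiated cells, gained and 4.61 kb inside the gene, and 3 in undifferentiated cells, 2.22, 3.11 and 3.45 kb inside it. The other gained sites were 53.4 kb upstream of Jun, where the non-coding BC042782 has a nearer TSS, and 47.4 kb upstream of Atf3, overlapping the undifferentiated RUNX2 site that was kept. The C/EBP motif was present in 1 of the 6 differentiated and 5 of the 18 undifferentiated peaks, against 44.8% and 41.1% of all.

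Chromatin marks were listed over most of the lost sites in both states. Of the 13 RUNX2 sites lost, 12 lay in an H4K5Ac region in differentiated and 12 in undifferentiated cells, 12 and 12 in an H3K9Ac region, and 13 and 12 in an H3K4me1 region. The exception for the acetylations was the Fos site 26.7 kb upstream. Over all lost RUNX2 sites the shares in differentiated and undifferentiated cells were 92.3% and 96.6% for H4K5Ac, 73.6% and 54.7% for H3K9Ac and 97.7% and 95.7% for H3K4me1. H3K4me3 covered 7 of the 13 in differentiated and 8 in undifferentiated cells, against 26.6% and 26.9% of all lost sites, and the site that differed was the Fosl1 promoter. Of the 15 C/EBPβ sites lost, 15 lay in H4K5Ac and 12 in H3K9Ac in each state, and 5 lay in H3K4me3 in differentiated and 8 in undifferentiated cells. Over all lost C/EBPβ sites the shares in differentiated and undifferentiated cells were 83.4% and 89.4% for H4K5Ac, 58.3% and 39.5% for H3K9Ac and 12.5% and 13.8% for H3K4me3.

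Promoters of the AP-1 genes were acetylated in both states. H4K5Ac and H3K9Ac, marks of active regulatory regions, lay at the promoter of all 8 genes in differentiated and in undifferentiated cells. Over all genes H4K5Ac lay at 54.3% of promoters in differentiated and 55.5% in undifferentiated cells, and H3K9Ac at 52.5% in differentiated and 49.2% in undifferentiated cells. H3K4me1, a mark of enhancers and promoter flanks, lay at 8 promoters in differentiated and 7 in undifferentiated cells, against 59.0% and 57.1% of all genes. The gene without it was Fosl2, whose nearest undifferentiated H3K4me1 region ended 1.06 kb upstream of the TSS, just outside the window.

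H3K4me3, the mark of active promoters, separated the members further. It lay at 5 of the 8 promoters in differentiated and 6 in undifferentiated cells, against 40.1% and 34.9% of all genes. Jun, Junb, Jund, Fos and Fosl2 carried it in both states, Fosb and Atf3 in neither, and Fosl1 in undifferentiated cells alone. With only the most 5′ TSS of each gene, Jund lacked it in undifferentiated cells, and the count was 5 in each state. The Jund region of each state also covered the start of the neighbour Gm11175, 1122 bp past the last Jund TSS. By nearest TSS, Jund was given 0 H3K4me3 regions in either state. Of all genes with H3K4me3 at the promoter in undifferentiated cells, 4.16% had none in differentiated cells. Fosb and Atf3 lacked it while both carried H3K9Ac regions of 4.95 and 3.03 kb in differentiated and 4.39 and 2.14 kb in undifferentiated cells.

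H3K4me3 regions at the Jun genes and Fos were between 2.05 and 7.19 kb wide. By width the Jun region was number 285 of 8196 in the differentiated and 663 of 6920 in the undifferentiated list, and the Jund region number 1864 and 5097. The promoter region measured 5.11 kb in differentiated and 7.19 kb in undifferentiated cells at Jun, and 4.07 kb in differentiated and 5.48 kb in undifferentiated cells at Junb. At Jund it measured 3.21 kb in differentiated and 2.05 kb in undifferentiated cells, and at Fos 3.62 kb in differentiated and 3.59 kb in undifferentiated cells. The median H3K4me3 region of the whole list measured 2417 bp in differentiated and 2865.5 bp in undifferentiated cells. By the authors' score the Fos region ranked 6784 of 8196 in the differentiated list and 4932 of 6920 in the undifferentiated list, in the lower part of each. The Jun region ranked 319 of 8196 in the differentiated and 1043 of 6920 in the undifferentiated list.

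**Figure D3:**
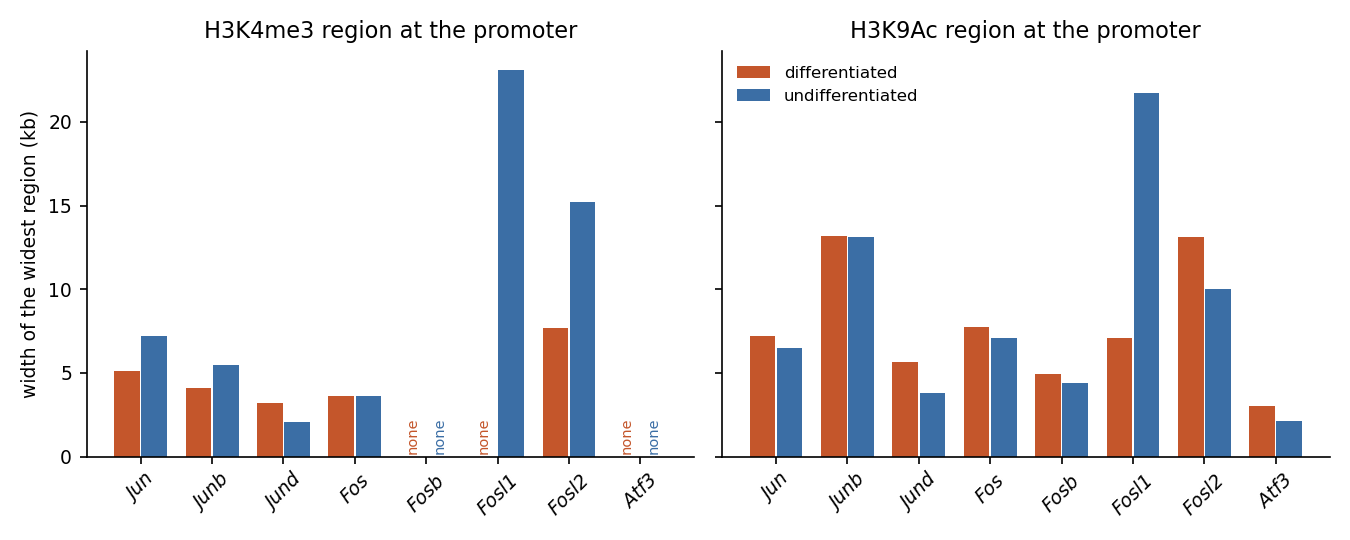
Width in kb of the widest H3K4me3 region (left) and H3K9Ac region (right) within 1 kb of a TSS of each AP-1 gene, in differentiated (orange) and undifferentiated (blue) cells, where "none" means that no region was listed. Fosl1 had no H3K4me3 region in differentiated cells and one of 23.1 kb in undifferentiated cells.

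Fosl1 and Fosl2 had broad H3K4me3 domains in undifferentiated cells. That of Fosl2 was number 86 of 6920 by width there and number 61 of 8196 in the differentiated list, so its high width rank is not particular to undifferentiated cells. In both states the Fosl2 region also covered the start of the neighbour Gm10463, 3304 bp upstream of the Fosl2 TSS. The undifferentiated Fosl1 region measured 23.1 kb, 6.18 kb upstream to 16.9 kb downstream of the TSS, and was number 27 of 6920 by width. It covered 100% of the gene body, against 8.10% in differentiated cells. It also covered the start of the neighbour Ccdc85b, whose TSS lies 9846 bp from that of Fosl1, so it is not a domain of Fosl1 alone. In differentiated cells a 6.58 kb H3K4me3 region, 7.58 to 14.2 kb downstream of the Fosl1 TSS, lay over that neighbour and the end of Fosl1.

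Other marks around Fosl1 were also narrower or split in differentiated cells. The H3K9Ac region at the promoter measured 7.10 kb in differentiated and 21.7 kb in undifferentiated cells, where it was number 30 of 14975 by width. The H4K5Ac region there measured 9.23 kb in differentiated and 58.7 kb in undifferentiated cells. The wider one also spanned the starts of the neighbours AI837181 and Ccdc85b. Separate differentiated regions lay within or across these undifferentiated spans as well. They measured 15.9, 13.5 and 23.3 kb for H4K5Ac and 10.1 kb for H3K9Ac. Within 10 kb of the TSS, H4K5Ac covered 66.2% in differentiated and 100% in undifferentiated cells, and H3K9Ac covered 51.5% in differentiated and 70.0% in undifferentiated cells. H3K4me1 did not follow them, with a region of 39.7 kb in differentiated and 39.5 kb in undifferentiated cells.

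The H3K4me3 and H3K9Ac regions at the Fosl2 promoter ranked high by score within their lists in both states. Its H3K4me3 region measured 7.67 kb in differentiated and 15.2 kb in undifferentiated cells, and it ranked 26 of 8196 by score in the differentiated and 140 of 6920 in the undifferentiated list. The H3K9Ac region measured 13.1 kb in differentiated cells, at rank 33 of 23671, and 10.0 kb in undifferentiated cells, at rank 116 of 14975. Like the H3K4me3 regions, the H3K9Ac regions of both states also covered the start of the neighbour Gm10463. The H4K5Ac region measured 30.6 kb in differentiated and 48.3 kb in undifferentiated cells. Differentiated H4K5Ac regions of 6.17, 1.7 and 9.09 kb also lay inside the wider of these spans. The 3 lost RUNX2 sites of Fosl2 lay inside the H3K4me3 region of both states.

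**Figure D4:**
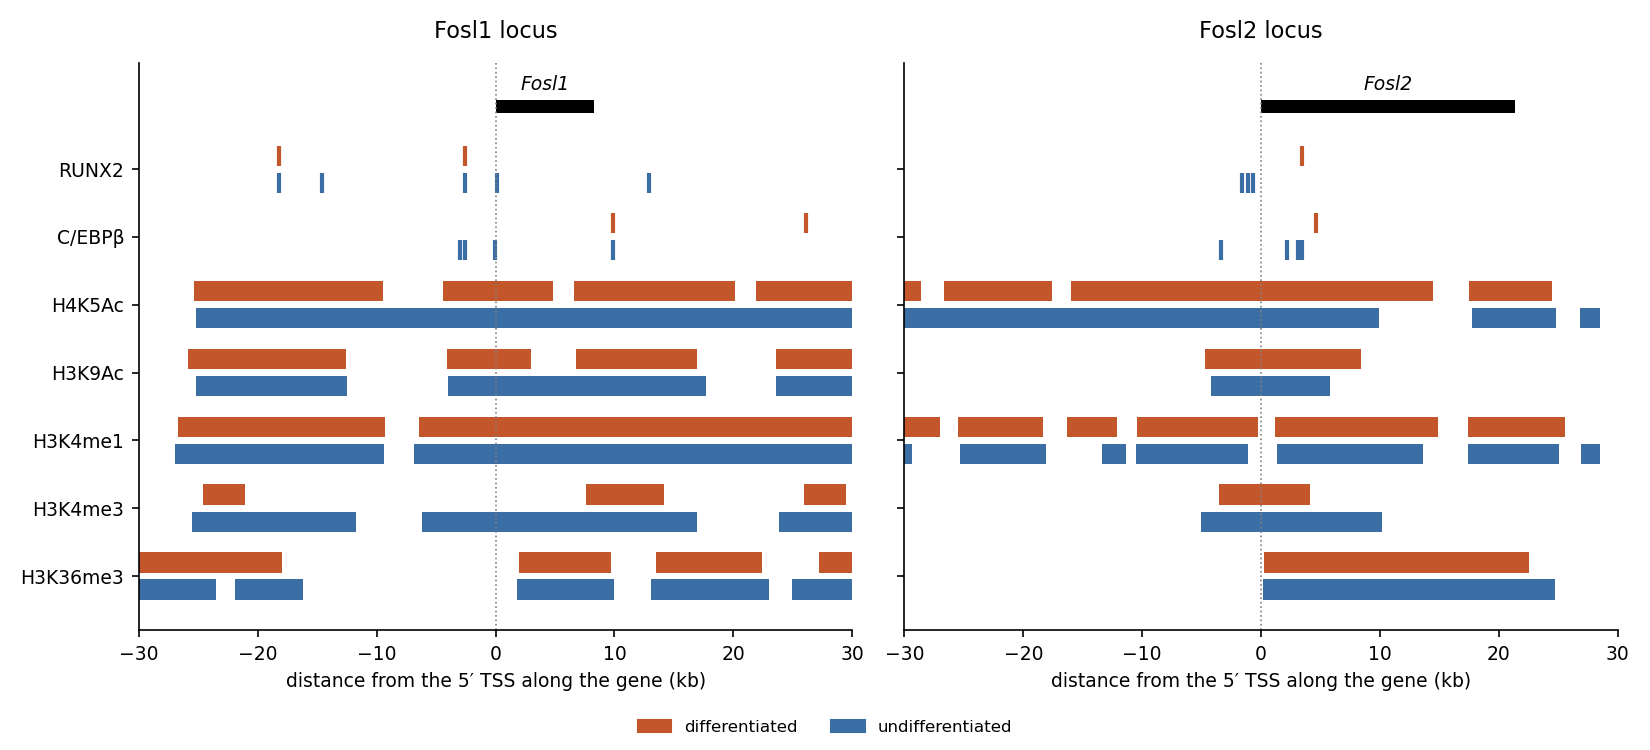
Regions and peaks within 30 kb of the 5′ TSS of Fosl1 (left) and Fosl2 (right), with the gene in black, mark regions as bars (clipped at the edge) and RUNX2 and C/EBPβ peaks as ticks, differentiated cells (orange) above undifferentiated cells (blue). Peaks nearest to a neighbouring gene are included, and the Fosl1 start lies in an H3K4me3 region of 23.1 kb in undifferentiated cells and outside any in differentiated cells.

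H3K36me3, which follows elongating RNA polymerase into transcribed genes, was listed over 6 of the 8 gene bodies in differentiated and 6 in undifferentiated cells, against 50.1% and 50.4% of all genes. The median cover of the 8 bodies was 65.3% in differentiated and 67.8% in undifferentiated cells. Over all genes the medians were 0.431% in differentiated and 1.26% in undifferentiated cells, and over genes with H3K4me3 at the promoter in either state 89.4% in differentiated and 89.3% in undifferentiated cells. Fosl2 was covered over 99.0% in differentiated and 99.2% in undifferentiated cells, and Fosl1 over 76.4% in differentiated and 78.5% in undifferentiated cells. The region over Fosl1 also lay over the neighbour Ccdc85b in both states. Jun was covered over 72.8% in differentiated and 74.1% in undifferentiated cells, and Fos over 69.3% in differentiated and 77.6% in undifferentiated cells. Jund had 14.6% in differentiated and 10.1% in undifferentiated cells, all near the end of the gene, and Fosb had 0% in each state. Junb is the shortest of the 8 genes, at 1807 bp, and Fosl2 the longest, at 21360 bp.

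The H3K36me3 call differed between states at Atf3 and Junb. Atf3 was covered over 61.3% of its body in differentiated and 0% in undifferentiated cells, by a region of 8.91 kb that began 5.05 kb downstream of the TSS. It was the 1 AP-1 gene higher by at least 10 percentage points, as were 5.13% of all genes. Junb was covered over 0% in differentiated and 61.5% in undifferentiated cells, and it was the 1 AP-1 gene lower by that much, as were 4.71% of all genes. The Junb region of undifferentiated cells, 7.84 kb long, also lay over the neighbour Prdx2. With 3 kb added past the gene end Junb had 47.1% in differentiated and 85.5% in undifferentiated cells. The reads of overlapping or adjacent genes cannot be told apart in these lists.

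**Figure D5:**
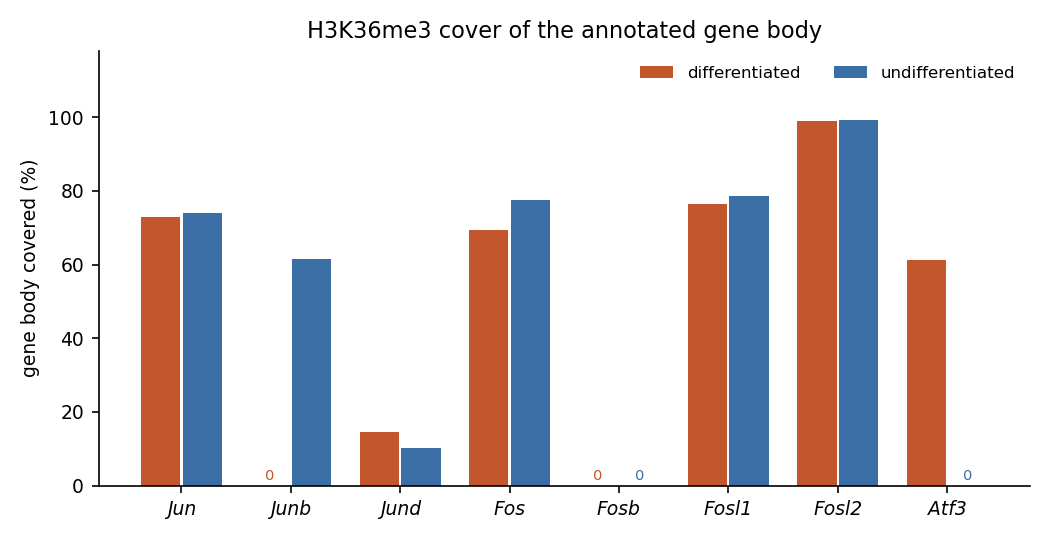
Share of each gene body, in percent, under H3K36me3 regions for the 8 AP-1 genes in differentiated (orange) and undifferentiated (blue) cells. Atf3 had 61.3% in differentiated and 0% in undifferentiated cells, Junb had 0% in differentiated and 61.5% in undifferentiated cells, and the other 6 genes differed by less than 10 percentage points.

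The upstream region of Atf3 held a separate set of marks. An H3K4me3 region lay 42.4 to 40.9 kb upstream in differentiated and 42.7 to 38.5 kb upstream in undifferentiated cells, near the start of the non-coding D730003I15Rik. H3K36me3 regions lay 70.4 to 47.9 and 46.1 to 41.9 kb upstream in differentiated cells, and 70.3 to 59.3 and 56.8 to 44.3 kb upstream in undifferentiated cells. Of the lost C/EBPβ sites given to Atf3, 3 lay in these H3K36me3 regions in both states.

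The profile of each member over the 14 lists was compared with that of every other gene. Each gene had 14 values, the peak counts of the 4 factor lists and the cover of the gene body with 10 kb on each side in the 10 mark lists, standardised over all genes. Pearson's r then described the likeness over 14 lists that share a cell line. The most alike genes were Ran and Apol7d for Jun (0.95 and 0.93), Slc34a3 and Fam166a for Junb (0.96 each) and Dand5 and Gm10643 for Jund (0.94 and 0.93). They were 2410004P03Rik and D830039M14Rik for Fos (0.92 and 0.90), Apold1 and Ppapdc2 for Fosb (0.94 each), Ccdc85b and Rin1 for Fosl1 (0.96 and 0.95), Atp6v1g1 and Scnn1a for Fosl2 (0.90 and 0.88) and Rapgef4 and Ptprg for Atf3 (0.95 and 0.93). Ccdc85b adjoins Fosl1 and shares regions with it. Between members the highest value was 0.81 for Junb and Fosl1 and the lowest -0.37 for Junb and Atf3. Even at 0.81, Fosl1 ranked only 776 among the genes most like Junb, and Junb 253 among those most like Fosl1.

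Other genes of the pathway had fewer RUNX2 peaks in differentiated cells more often than more. Of 21 genes for other leucine zipper partners 12 had fewer and 0 more, with 15 peaks in differentiated and 39 in undifferentiated cells. Bach2 had 7 in differentiated and 16 in undifferentiated cells, Maf had 2 and 4 in these states, Atf6 had 2 and 3, and Atf4, Mafk and Nfe2l1 had 0 in differentiated and 2 in undifferentiated cells each. Of 16 genes of the MAP kinase and serum response pathways, which act upstream of Fos and Jun, 7 had fewer and 0 more, with 5 peaks in differentiated and 20 in undifferentiated cells. Elk3 and Srf encode proteins that can bind the Fos promoter, and Elk3 had 0 in differentiated and 4 in undifferentiated cells, while Srf had 1 in differentiated and 3 in undifferentiated cells. Mkl1 had 2 in differentiated and 5 in undifferentiated cells, and Map2k1 and Map2k4 had 0 in differentiated and 1 in undifferentiated cells each. These counts and those of the lists that follow stand beside 19.8% of all genes with fewer and 2.92% with more. Of the genes with an undifferentiated RUNX2 peak, 72.6% had fewer. Such a peak lay at 12 of the leucine zipper partner genes and 9 of the MAP kinase and serum response genes. Over all genes the ratio of differentiated to undifferentiated RUNX2 peaks was 0.485.

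Among 14 other immediate early genes 6 had fewer and 2 more, with 14 RUNX2 peaks in differentiated and 23 in undifferentiated cells. Klf4 had 2 in differentiated and 6 in undifferentiated cells, and in the same states Cyr61 had 2 and 4, Dusp1 had 1 and 3, Btg2 had 1 and 2, Ier2 had 0 and 1, and Ier3 had 2 and 3. The 2 genes with more, named after their values were seen, were Klf2, with 1 in differentiated and 0 in undifferentiated cells, and Myc, with 2 in differentiated and 1 in undifferentiated cells. A RUNX2 peak lay at 10 of these genes in each state, compared with 4 of the 8 AP-1 genes in differentiated and 7 in undifferentiated cells. Of 12 classical AP-1 target genes 6 had fewer and 0 more, with 13 peaks in differentiated and 25 in undifferentiated cells. An undifferentiated RUNX2 peak lay at 7 of the 12. Cd44 had 3 in differentiated and 7 in undifferentiated cells, and in the same states Spp1 had 4 and 7, Vim had 1 and 3, Ccnd1 had 4 and 5, and Mmp13 and Mmp9 had 0 and 1 each. Mmp13, a collagenase gene with a known AP-1 site in its promoter, was covered by H3K36me3 over 90.3% of its body in differentiated and 0% in undifferentiated cells. Timp1 of the same list, named after its values were seen, went the other way, with 20.6% in differentiated and 70.4% in undifferentiated cells. Among all genes 5.13% were higher by at least 10 percentage points in differentiated cells and 4.71% lower.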

How the data were processed

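ChIP-seq reads had been aligned with Bowtie to mm9 with HOMER as the peak caller, per the submitters' processing notes, and with versions and thresholds not given in the sources used here. The deposited lists hold merged peaks of biological replicates, each peak from at least 2, so each state and antibody has 1 list. The score of each region is the authors' own. It is 0 throughout the RUNX2 and C/EBPβ lists and was used only to rank mark regions within a list. Factor peaks have 1 fixed width, except 1 that began below position 0 and was clipped.

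The 22239 genes (70022 TSSs) are the protein-coding genes of GENCODE vM1 and Cebpd. The 8 members and the gene lists were chosen with earlier results of these data known. All 8 members were named, with the 2 most alike genes each, and up to 6 genes per other list by change in RUNX2 peak count. The values of 1 gene that this rule names are not reported here, though its list's totals include it. Python 3.11.15, numpy 2.4.6, scipy 1.17.1, pysam 0.24.0 and matplotlib 3.10.9 were used. The nearest-TSS, overlap and cover, and motif steps were tested on simulated data and returned 200 of 200 correct answers each. Alternatives varied peak assignment, gene set, overlap, promoter width, score and gene body.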

Additional observations from a re-analysis of the deposited data

How the results depend on the processing

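Of 84 recalculated values, 77 stayed the same by the rule for their kind and 7 moved. Counts and their ratios had to stay within 1.5 times of the main value, and kept shares within the counting interval of the main share. A median H3K36me3 cover had to equal the main one to 3 significant digits. The 7 were the differing medians given below and the C/EBPβ count of differentiated cells with non-coding genes competing. The counting interval is wide. The kept share of RUNX2 sites ran between 7.14% and 18.8% and that of C/EBPβ sites between 11.1% and 31.6%. The high C/EBPβ values came under assignment by distance or gene body. The order of the genes by peak count also changed under those assignments. Under both of them Jun had 1 C/EBPβ peak in differentiated and 2 in undifferentiated cells, in place of 2 in each. With non-coding genes competing for the nearest TSS, the C/EBPβ count in differentiated cells was 3 in place of 6, because sites near BC042782 and D730003I15Rik left Jun and Atf3. The median H3K36me3 cover of the 8 genes was 76.6% in differentiated and 75.4% in undifferentiated cells without the first 1 kb of the body, 54.8% and 55.5% with 3 kb added past its end, and 0% and 0% with the 50% of regions of highest score. No stricter threshold could be set for RUNX2 and C/EBPβ peaks, whose scores are all 0. Counts of 0 to 5 peaks per gene, 1 list per state and unknown depth limit what each comparison can show. No paired analysis was possible because replicates were merged before deposit and each state has 1 list.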
